A study of Mus musculus with 4 samples.

Results

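The genes described here are 36 mouse genes that make, use or activate propionyl-CoA and related acyl-CoAs, taken by symbol from a fixed list out of 21887 protein-coding genes. All 36 symbols were found in RefSeq's gene table for GRCm38.p6, which shares its coordinates with the authors' mm10 build. The measurement was chromatin immunoprecipitation sequencing of H3K23pr, propionylated lysine 23 of histone H3, in liver of male C57BL/6 mice. The KO group carried a hepatocyte-specific RPN11 knockout, and the group titled WT was RPN11 flox/flox, so it is a floxed control and not an unmodified strain. Each genotype had 1 immunoprecipitate (IP) and 1 input library, and the labels named no Cre driver, age or diet. Once duplicates were filtered, 15468265 IP fragments counted in KO and 13615838 in WT. A peak is a site called by the authors' peak caller in 1 IP against its own input, and its strength is the number of IP fragments over the summit. Each gene was given a window from 5 kb before its lower-coordinate end to 5 kb beyond its higher-coordinate end.

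Propionyl-CoA is made in mitochondria when valine and isoleucine are broken down, and by activation of free propionate taken up from the gut. Propionyl-CoA carboxylase and methylmalonyl-CoA mutase, which needs vitamin B12 (cobalamin), carry it into the citric acid cycle, and carnitine acetyltransferase can remove it as propionylcarnitine. Propionyl-CoA is also the donor for histone propionylation, the mark mapped here. The list also holds genes of leucine breakdown, of malonyl-CoA breakdown and of the activation of other acids. Whether any of these genes affects the supply of the mark was not tested.

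Windows of the 36 genes held 80 peaks in KO and 82 in WT. A peak was present in 17 of the 36 genes in KO, or 47.2%, where 33.3% of all protein-coding genes had one, and in 25 genes in WT, or 69.4%, where 47.7% had one. Longer genes have more peaks, and these windows had a median of 46.3 kb against 27.2 kb for all protein-coding genes. Among genes whose windows were within 10% of the same length, 16.0 genes with a KO peak and 22.4 with a WT peak corresponded to such a list, so the shares of genes with a peak were close to those for gene length. The peak numbers were not. They came to 80 in KO where the like-length means summed to 41.6, and to 82 in WT where they summed to 56.5. Pcca and Acss3 held 42.5% of the KO peaks and 39.0% of the WT peaks in 25.6% of the window length. Without these 2 genes there were 46 KO peaks against a like-length sum of 30.0 and 50 WT peaks against 41.8. This split was chosen after the values were seen. Of the 46 KO peaks, Hibadh held 8 and Acsm1 held 7, where their like-length means were 2.05 and 0.908. Taken singly, 16 of the 36 genes lay above their like-length mean in KO and 20 in WT.

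By genotype, 3 genes had peaks in KO only (8.33%, against 9.05% of all protein-coding genes), 11 in WT only (30.6%, against 23.4%), 14 in both lists (38.9%, against 24.3%) and 8 in neither (22.2%, against 43.3%). These shares were not adjusted for gene length, and the windows of the list were longer, with a median of 46.3 kb against 27.2 kb. The KO-only genes were Hibadh, Dbt and Mccc2. The WT-only genes were Ivd, Pccb, Acadsb, Acsf3, Acsl3, Acsf2, Acss1, Acsm3, Auh, Bcat2 and Crat. The 8 genes without a peak were Bckdha, Bckdk, Dld, Mcee, Mmut, Mmab, Acsl1 and Mlycd. With 1 library per genotype, none of these differences has a replicate check, and no test of genotype was possible.

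**Figure D1:**
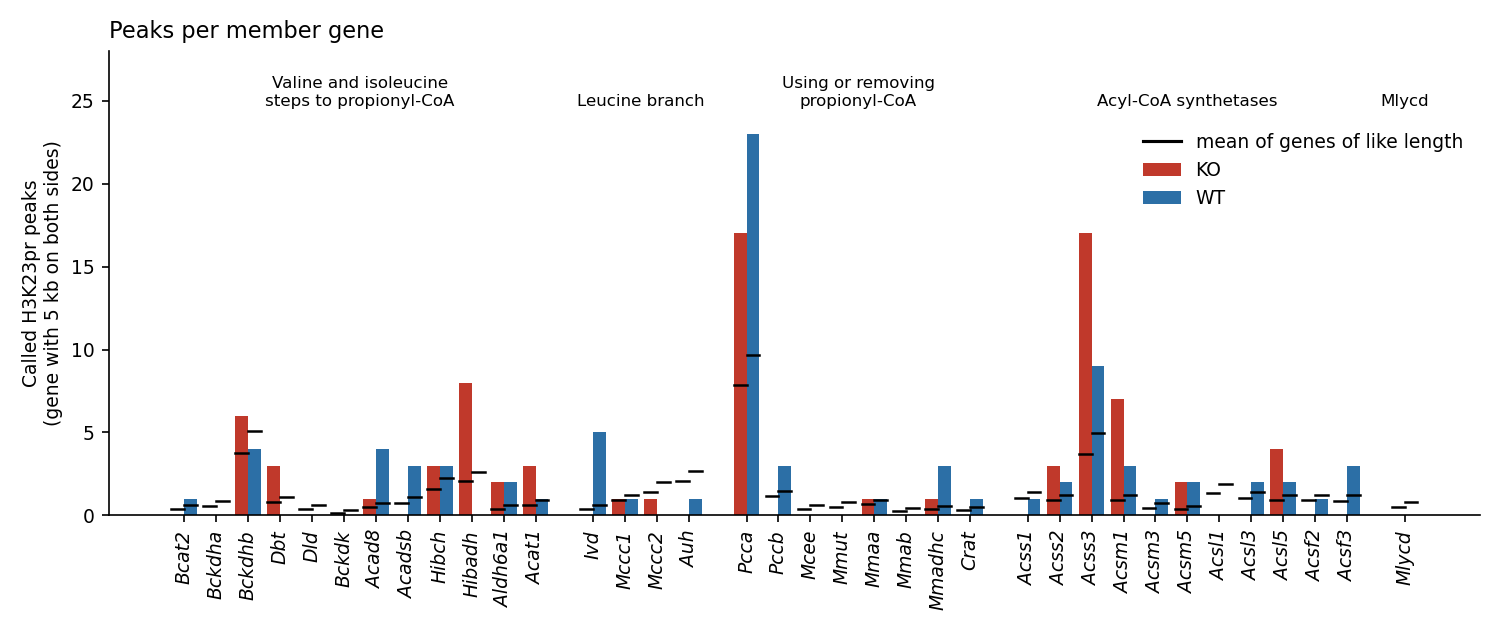
Called H3K23pr peaks (vertical axis, number) in the window of each of the 36 genes, grouped by step, with KO bars left of WT bars. Black lines give the mean of genes of like window length in the same list. Pcca, Acss3, Hibadh and Acsm1 in KO, with 17, 17, 8 and 7 peaks, and Pcca and Ivd in WT, with 23 and 5, stand well above their lines.

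The starts of the genes were looked at first, because a promoter is the part of a gene where histone acylation is usually studied. RefSeq promoter sequences, each of 300 bases from 250 before to 50 after an annotated start, were found for 30 of the 36 genes, with 36 starts in all. None of these windows held a peak in either list, where 0.193% of all 21263 such windows of protein-coding genes held a KO peak and 0.442% a WT peak. Within 1 kb of a start there was a KO peak at 2 of the 36 starts (5.56%, against 1.5% of all starts) and a WT peak at 1 (2.78%, against 3.30%). The KO cases were Aldh6a1, where the nearer edge of a peak of 5 fragments lay 801 bp before the inner of its 2 starts, and Pcca, where a peak of 5 fragments began 994 bp after the inner start. The WT case was Acsm3, where a peak of 5 fragments began 784 bp after the start. Printed here are the promoters nearest to a peak and those of Hibadh and Ivd, the genes with the most one-sided peak numbers. The sequences are RefSeq's for GRCm38.p6, 5′ to 3′ on the strand of the gene, and capitals mark CCAAT or its reverse complement ATTGG.
Acsm3 (chr7:119760673-119760972, plus strand): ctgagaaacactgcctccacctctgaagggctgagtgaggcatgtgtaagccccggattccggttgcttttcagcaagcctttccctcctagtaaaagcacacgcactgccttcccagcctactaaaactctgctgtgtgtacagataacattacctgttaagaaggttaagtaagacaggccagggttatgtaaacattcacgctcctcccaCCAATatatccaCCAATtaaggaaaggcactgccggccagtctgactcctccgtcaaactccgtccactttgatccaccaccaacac
Aldh6a1, outer start (chr12:84450975-84451274, minus strand): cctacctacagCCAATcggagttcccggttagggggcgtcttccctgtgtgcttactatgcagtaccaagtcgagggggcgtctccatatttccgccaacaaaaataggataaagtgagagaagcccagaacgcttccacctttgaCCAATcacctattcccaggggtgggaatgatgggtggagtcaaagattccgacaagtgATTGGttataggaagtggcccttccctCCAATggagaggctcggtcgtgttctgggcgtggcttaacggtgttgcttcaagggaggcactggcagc
Aldh6a1, inner start (chr12:84448268-84448567, minus strand): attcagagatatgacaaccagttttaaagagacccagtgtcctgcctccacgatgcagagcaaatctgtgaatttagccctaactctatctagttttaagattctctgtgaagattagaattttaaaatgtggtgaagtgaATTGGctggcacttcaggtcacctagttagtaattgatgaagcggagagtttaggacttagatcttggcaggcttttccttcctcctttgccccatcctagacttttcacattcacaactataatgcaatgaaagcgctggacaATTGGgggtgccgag
Pcca, inner start (chr14:122534078-122534377, plus strand): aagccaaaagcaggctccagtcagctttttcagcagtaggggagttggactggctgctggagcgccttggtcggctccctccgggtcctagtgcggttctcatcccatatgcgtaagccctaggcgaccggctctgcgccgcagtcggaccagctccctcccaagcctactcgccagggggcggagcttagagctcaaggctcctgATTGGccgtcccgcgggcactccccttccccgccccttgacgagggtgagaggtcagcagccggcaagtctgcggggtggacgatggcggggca
Hibadh (chr6:52640251-52640550, minus strand): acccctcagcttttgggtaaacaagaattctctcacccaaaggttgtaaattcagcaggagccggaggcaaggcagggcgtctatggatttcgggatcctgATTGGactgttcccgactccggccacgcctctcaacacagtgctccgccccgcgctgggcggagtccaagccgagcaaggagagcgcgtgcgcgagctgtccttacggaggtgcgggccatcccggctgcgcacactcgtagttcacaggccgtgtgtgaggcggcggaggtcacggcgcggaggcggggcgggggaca
Ivd (chr2:118861744-118862043, plus strand): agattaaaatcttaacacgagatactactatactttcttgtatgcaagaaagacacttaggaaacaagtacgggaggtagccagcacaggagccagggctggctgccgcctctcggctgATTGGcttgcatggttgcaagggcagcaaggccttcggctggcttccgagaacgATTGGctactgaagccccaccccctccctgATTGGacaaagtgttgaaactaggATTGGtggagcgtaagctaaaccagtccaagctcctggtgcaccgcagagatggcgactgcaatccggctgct
CCAAT, searched on both strands, was present in 24 of the 36 windows (66.7%), where 38.2% of all windows had it. Counted by gene it was in a window of 21 of 30 genes and of 42.3% of all genes with a promoter sequence. Ivd and the outer start of Aldh6a1 had 4 matches each, and 1.25% of all windows had 4 or more. The GC box GGGCGG was as common here as elsewhere, at 47.2% against 46.2%, and TATAAA was found in 2.78% against 12.6%. A match describes the letters in the window only.

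The steps from valine and isoleucine to propionyl-CoA came to 26 KO peaks and 18 WT peaks over 12 genes, a rate of 3.65 per 100 kb in KO (exact 95% Poisson interval 2.38 to 5.35) and 2.53 in WT (1.5 to 3.99). All intervals given here cover counting error only. Among these genes Hibadh, the dehydrogenase of 3-hydroxyisobutyrate in the valine pathway, differed most between the lists. It lies on the minus strand of chromosome 6 from 52546230 to 52640300 and had 8 peaks in KO and 0 in WT. The KO peaks had 4 to 7 fragments with a median of 6.00, and all lay inside the gene. Of these, 7 fell within 32.0 kb (chr6:52578225-52610237), in the middle of the gene and away from the CG-rich promoter shown above. None of the 686 genes of like length had at least 8 KO peaks and no WT peak, and 8 of all 21887 protein-coding genes did (0.0366%). Of the 8 peaks, 5 had a q value of at most 0.05 in the authors' peak list. Most of these had 6 fragments at the lowest common background, where such a peak passed in KO but not in WT. Among the strongest 5000 KO peaks Hibadh had 1.

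The branched-chain ketoacid dehydrogenase, the complex that commits valine, isoleucine and leucine to breakdown, was covered unevenly. Its decarboxylase subunit gene Bckdhb, which spans 199 kb on chromosome 9, had 6 peaks in KO with 4 to 7 fragments and 4 in WT with 4 or 5 fragments. The means for like-length genes were 3.77 in KO and 5.06 in WT, so neither number stood far from them. Dbt, the transacylase core, had 3 KO peaks of 5, 6 and 5 fragments inside the gene and no WT peak, while 2.17% of like-length genes had at least 3 KO peaks and no WT peak. The partner subunit gene Bckdha, the lipoamide dehydrogenase gene Dld and the gene of the inhibitory kinase Bckdk had no peak in either list. For the whole complex with its kinase this made 9 KO and 4 WT peaks, where like-length means summed to 5.71 and 7.97.

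Further down the valine pathway, Acad8, the isobutyryl-CoA dehydrogenase gene, had 1 KO peak of 4 fragments and 4 WT peaks of 4 to 5 fragments. As many WT peaks were found in 1.06% of like-length genes, but with peaks of at least 5 fragments 2 were left and the share was 11.9%. Its KO peak lay beyond the end of the gene and its WT peaks lay inside and in front of the start. Hibch, which encodes the 3-hydroxyisobutyryl-CoA hydrolase that acts before Hibadh, carried the only pair of overlapping peaks among the 36 genes. At about 8 kb into the gene on chromosome 1, a KO peak of 6 fragments (chr1:52853083-52853207, 4.46-fold) overlapped a WT peak of 8 fragments (chr1:52852924-52853143, 5.01-fold) by 61 bp, or 48.8% of the shorter peak. A further KO peak of 4 fragments lay 21 bp to the other side of the same WT peak. Hibch had 3 peaks in each list in total.

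Aldh6a1, the methylmalonate semialdehyde dehydrogenase that releases propionyl-CoA from valine, had 2 peaks in KO (6 and 5 fragments) and 2 in WT (6 fragments each). The KO peak of 5 fragments lay between the starts shown above, and the other 3 peaks lay close together near the end of the gene (chr12:84432390-84433783), where Bbof1 overlaps it. In the isoleucine pathway, Acat1, the thiolase that splits off propionyl-CoA, had 3 KO peaks of 4 to 6 fragments and 1 WT peak of 7 fragments. That WT peak lay past the higher-coordinate end of Acat1, in Cul5, over a background of 1.55 fragments. The KO peak of 6 fragments also lay past this end. Acadsb, the 2-methylbutyryl-CoA dehydrogenase gene, had no KO peak and 3 WT peaks of 4 to 5 fragments. At least 3 WT peaks and no KO peak were found in 3.64% of genes of like length to Acadsb. The mitochondrial aminotransferase gene Bcat2, which begins the breakdown, had no KO peak. Its 1 WT peak, of 7 fragments, lay in the neighbouring Hsd17b14.

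The leucine branch, which leads to acetyl-CoA and not to propionyl-CoA, had 2 KO peaks and 7 WT peaks over 4 genes. Of the WT peaks, 5 were in Ivd, the isovaleryl-CoA dehydrogenase gene on chromosome 2 (118861959 to 118882909), which had none in KO. These peaks had 6, 5, 4, 7 and 7 fragments from the lower-coordinate side. Of them, 4 fell within 9.95 kb from in front of the start into the first part of the gene. The peak of 4 fragments (chr2:118867936-118868038) lay right beside the next one but was counted apart from it. The first and last peaks stood over local backgrounds of 0.985 and 1.45 fragments, where the lowest common background in the WT list was 0.692. With 16.2 WT peaks per 100 kb Ivd was the densest of the 36 genes in either list. As many WT peaks were found in 0.167% of the 1799 like-length genes, and 0.434% of all protein-coding genes had at least 5 WT peaks and no KO peak. Only the WT peak of 7 fragments at chr2:118868164-118868398 had a q value of at most 0.05, a rule that took more fragments to pass in WT than in KO. Among the strongest 5000 WT peaks Ivd also had 1. The methylcrotonyl-CoA carboxylase genes Mccc1 and Mccc2 had 1 KO peak each, of 9 and 6 fragments, 2 to 5 kb past their ends, while Mccc1 had 1 WT peak of 4 fragments in front of its start and Mccc2 had none. Auh, the methylglutaconyl-CoA hydratase gene, spans 94.6 kb but had no KO peak and 1 WT peak of 4 fragments, where the like-length means were 2.09 and 2.65. Without Ivd the branch had 2 peaks in each list.

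**Figure D2:**
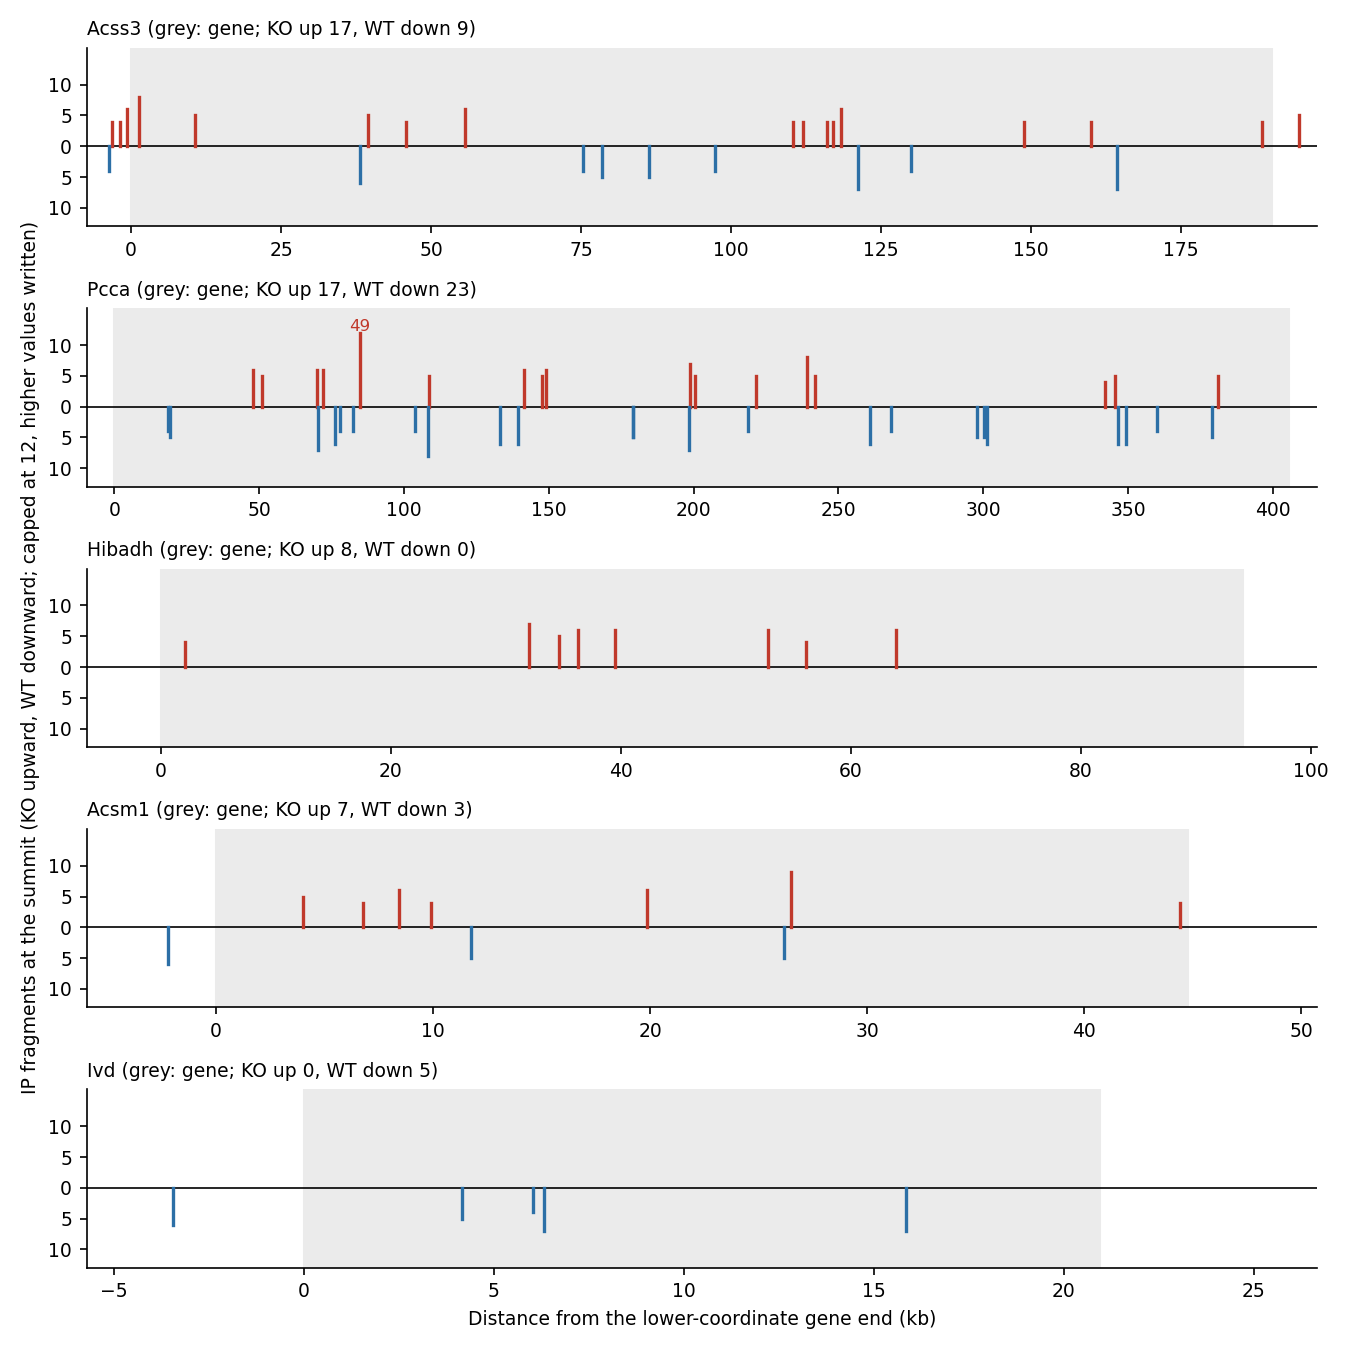
Positions of called peaks (horizontal axis, kb from the lower-coordinate end of the gene; grey, the gene) in Acss3, Pcca, Hibadh, Acsm1 and Ivd, with KO drawn upward and WT downward. The height is the number of IP fragments at the summit. Hibadh has peaks in KO only and Ivd in WT only, and the bar of the KO peak of 49 fragments in Pcca is capped at 12, with its value written above it.

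The genes that use or remove propionyl-CoA had 19 KO peaks and 31 WT peaks over 8 genes, of which Pcca held 17 and 23. Pcca encodes the biotin-carrying subunit of propionyl-CoA carboxylase and is the longest of the 36 genes, with 406 kb on chromosome 14 (122484365 to 122889944). Like-length genes had means of 7.89 KO and 9.68 WT peaks. As many peaks as in Pcca were found in 4.76% of the 126 such genes in KO and in 0.794% in WT, and Pcca was the only one of the 36 genes for which this share was at most 5% in both lists. With peaks of at least 5 fragments Pcca had 16 in KO and 16 in WT, so its higher WT number rested on peaks of 4 fragments. The KO peaks spread over 333 kb and the WT peaks over 361 kb of the gene.

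The strongest peak of all 36 genes was a KO peak inside Pcca with 49 fragments (chr14:122568976-122569053), at rank 35 of the 41907 KO peaks. Its fold was 6.28 over a local background of 6.96 fragments, where the lowest common background in the KO list was 0.568. No WT peak overlapped it. A KO peak of 8 fragments at rank 364 (chr14:122723581-122723708) was the next strongest in the gene, and the strongest WT peak had 8 fragments (chr14:122592750-122592856, rank 1264 of 54397). Although no peaks overlapped in Pcca, at 3 places a KO and a WT peak lay side by side with 107 to 148 bp between them. These KO peaks had 6, 5 and 7 fragments, and the WT peaks beside them had 7, 8 and 7.

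The partner subunit Pccb, which forms the carboxylase with Pcca, had no KO peak and 3 WT peaks of 7, 5 and 4 fragments inside the gene. In KO 53.1% of like-length genes had a peak, so a lack of them in a gene of this length was common. At least 3 WT peaks together with no KO peak were found in 5.78% of like-length genes. The mutase, its epimerase and the cobalamin genes had 2 KO peaks and 4 WT peaks, close to the like-length sums of 2.23 and 3.41. Of these 5 genes, Mmut, which encodes methylmalonyl-CoA mutase, Mcee, the epimerase gene that feeds it, and Mmab, which makes its adenosylcobalamin cofactor, had no peak in either list. Mmaa, the chaperone that loads the cofactor, had 1 KO peak of 4 fragments and 1 WT peak of 6. Mmadhc, which directs cobalamin to the mitochondrion, had 1 KO peak of 4 fragments and 3 WT peaks of 6, 5 and 4, of which the last 2 lay within 2 kb of its higher-coordinate end. As many WT peaks as in Mmadhc were found in 3.58% of like-length genes, and in 8.13% when only peaks of at least 5 fragments counted. Crat, the carnitine acetyltransferase gene, had 1 WT peak of 9 fragments over a background of 1.53 fragments, and none in KO.

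The acyl-CoA synthetases, which join free acids to coenzyme A, had the highest KO rate of the steps, with 33 peaks over 11 genes or 4.53 per 100 kb (3.12 to 6.36). In WT they had 26, or 3.57 per 100 kb (2.33 to 5.23). Acss3, the synthetase that activates propionate, had 17 of the KO peaks and 9 of the WT peaks. The KO number was reached by 0.339% of the 295 like-length genes and the WT number by 11.2%, with means of 3.68 and 4.96. Most of that KO excess was in the weakest peaks, since with at least 5 fragments Acss3 had 7 KO peaks and 5 WT peaks, numbers reached by 5.42% and 22.0% of like-length genes. The KO peaks of Acss3 formed groups. At the lower-coordinate end of the gene 4 of them, with 4, 4, 6 and 8 fragments, lay within 4.58 kb (chr10:106930304-106934880), the first 3 outside Acss3 and in its neighbour Ppfia2. A further 5, with 4 to 6 fragments, lay within 8.06 kb inside the gene (chr10:107043837-107051893). The WT peaks were spread more evenly, with no more than 2 in any 10 kb, and the strongest had 7 fragments. No KO peak overlapped a WT peak.

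Groups of this kind were uncommon. At least 4 KO peaks within 10 kb were found in Acss3, Hibadh and Acsm1, or 8.33% of the 36 genes, where 0.640% of all protein-coding genes had such a group. At least 4 WT peaks within 10 kb were found in Ivd, or 2.78%, against 0.416%. The number of 4 was chosen after the values were seen. With peaks of at least 5 fragments, Hibadh alone of the 36 genes still had such a group, in KO, where 0.270% of all protein-coding genes had one. None of these shares was adjusted for gene length. The windows of Acss3, Hibadh, Acsm1 and Ivd were 200, 104, 54.8 and 31.0 kb long, where the median of all protein-coding genes was 27.2 kb.

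The medium-chain synthetases Acsm5, Acsm1 and Acsm3, which activate medium-chain fatty acids, lie in a cluster on chromosome 7 that also holds Acsm2 and Acsm4. Over 269 kb from Acsm5 to Acsm3, with 5 kb on both sides, there were 11 KO peaks and 8 WT peaks. Acsm1 had 7 of the KO peaks and 3 of the WT peaks, and its KO rate of 12.8 per 100 kb was the highest of the 36 genes in that list. As many KO peaks were found in 0.507% of 1184 like-length genes. With at least 5 fragments it had 4 KO peaks and 3 WT peaks, and the KO share was 2.45%. Its strongest KO peak had 9 fragments (chr7:119644206-119644280, 6.38-fold, rank 172), and a WT peak of 5 fragments lay 221 bp away from it. Acsm5 had KO peaks of 7 and 6 fragments and WT peaks of 6 and 8, and its KO peak of 7 lay in front of the start, in Pdilt. The neighbouring Acsm3 had no KO peak and the 1 WT peak just after the start that is described above.

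Of the other 7 synthetases, 2 had KO peaks, where 46.7% to 60.6% of genes of like length to each had one. Acss2, the cytosolic and nuclear acetyl-CoA synthetase gene, had 3 KO peaks of 7, 4 and 5 fragments and 2 WT peaks of 5 fragments each, while its mitochondrial relative Acss1 had no KO peak and 1 WT peak of 4 fragments. Among the long-chain synthetases, Acsl5 had 4 KO peaks, 3 of them around and beyond the end of the gene, and 2 WT peaks. The KO peaks at chr19:55298575-55298649 and chr19:55299381-55299467 lay in Zdhhc6. Acsl3 had no KO peak and 2 WT peaks, of which that of 9 fragments stood over a background of 2.90 and that of 5 over 0.692. Acsl1, the main long-chain synthetase of liver, had none in either list despite a window of 75.0 kb, the longest without a peak. In KO 60.6% and in WT 80.9% of like-length genes had at least 1 peak. Acsf2 had 1 WT peak of 7 fragments. Acsf3, the mitochondrial malonyl-CoA synthetase gene, had 3 WT peaks of 4 to 6 fragments, and neither Acsf gene had a KO peak. At least 3 WT peaks and no KO peak were found in 4.41% of genes of like length to Acsf3. Mlycd, which breaks malonyl-CoA down, had no peak in either list.

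**Figure D3:**
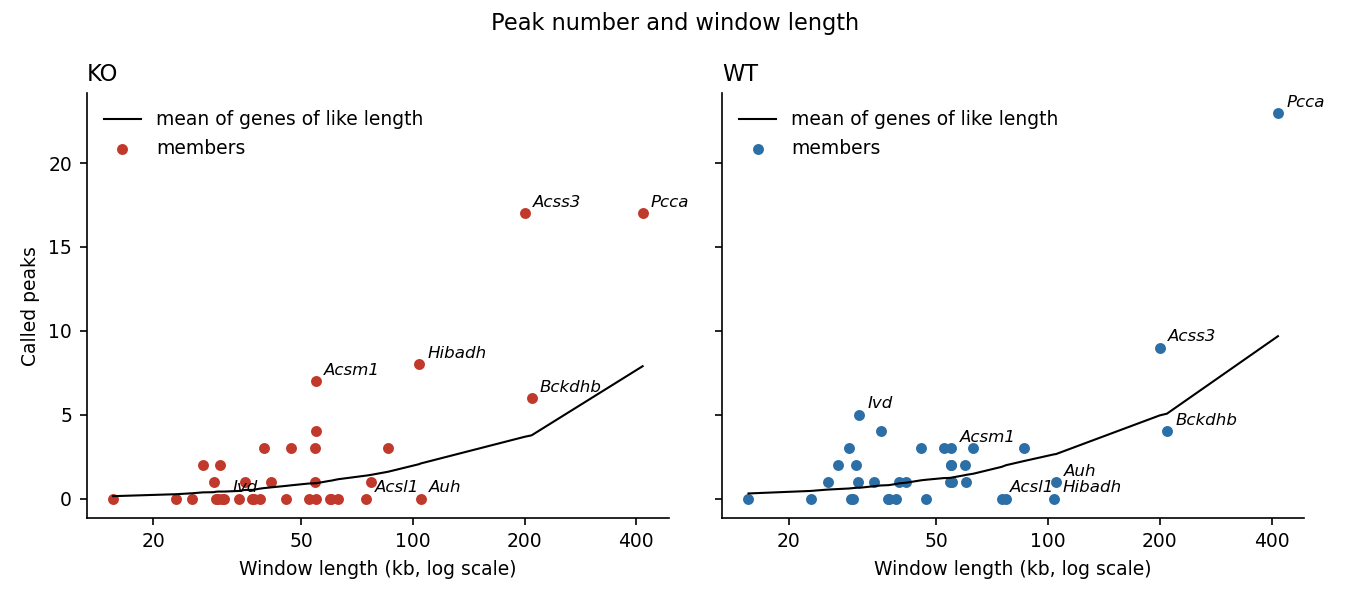
Called peaks (vertical axis, number) against window length (horizontal axis, kb on a log scale) for the 36 genes, KO left and WT right. The line joins the means of genes of like length. Pcca and Acss3 with 17 KO peaks each, Hibadh with 8 and Acsm1 with 7 lie above the line in KO, and Pcca with 23, Acss3 with 9 and Ivd with 5 lie above it in WT.

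Across the steps, the number of KO peaks for each WT peak was 1.44 (exact 95% interval 0.762 to 2.80) for the valine and isoleucine steps and 1.27 (0.736 to 2.21) for the synthetases. It was 0.613 (0.327 to 1.12) for the genes that use propionyl-CoA and 0.286 (0.0290 to 1.5) for the leucine branch. Over all 36 genes it was 0.976 (0.708 to 1.34), and over all protein-coding genes 0.744. Of the steps, only the interval of the valine and isoleucine steps lay above 0.744, and without Hibadh, left out after the values were seen, that ratio was 1.00 (0.491 to 2.04). The synthetases without Acss3 came to 0.941 (0.445 to 1.98) and the using genes without Pcca to 0.250 (0.0259 to 1.25). These ratios moved with the peak threshold. With peaks of at least 5 fragments the synthetases had 17 KO peaks and 19 WT peaks, a ratio of 0.895, against 0.686 for all protein-coding genes. The valine and isoleucine steps then had 19 and 12, a ratio of 1.58, with 6 of the 19 in Hibadh. With q values of at most 0.05 the using genes had 8 KO peaks and 3 WT peaks and the leucine branch 2 and 1, so both directions turned, while the ratio over all protein-coding genes was 2.00. With the strongest 5000 peaks of each list the using genes had 3 in both lists and the leucine branch 1 in both. The valine and isoleucine steps then had 4 and 1 and the synthetases 6 and 3, where the ratio over all protein-coding genes was 0.951. The intervals of the 4 steps, all peaks counted, overlapped one another, and differences between steps were not tested because genes are not replicates.

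**Figure D4:**
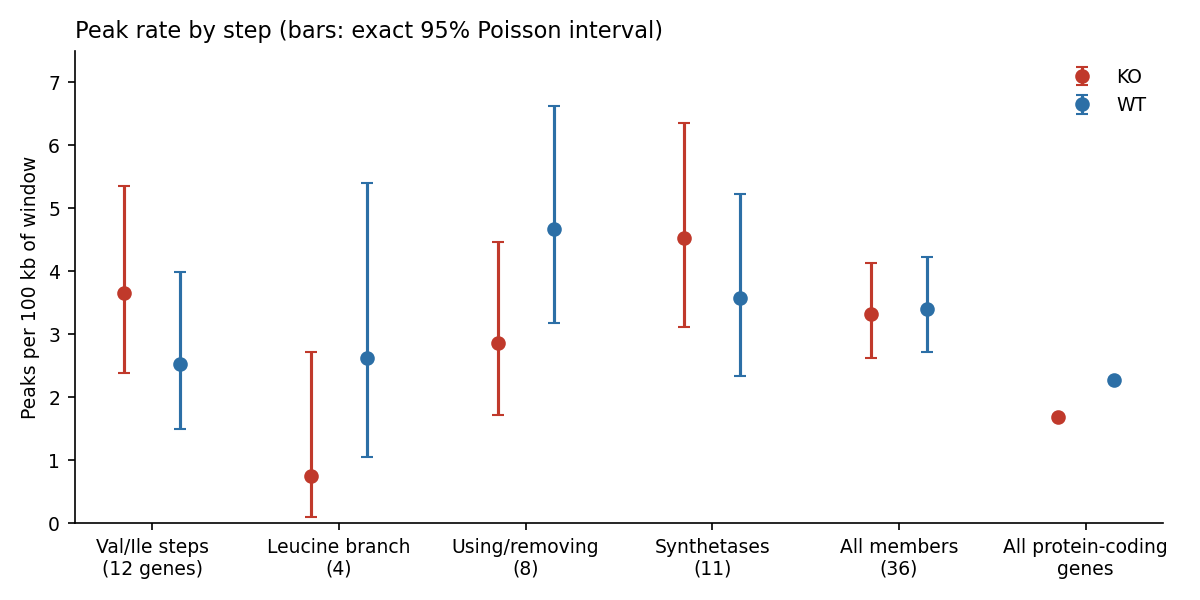
Peaks per 100 kb of window (vertical axis) by step in KO (left point of each pair) and WT (right point), with exact 95% Poisson intervals. All 36 genes together have 3.32 in KO and 3.40 in WT, against 1.69 and 2.27 over all protein-coding genes.

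By place, the 30 genes with a known strand had most of their peaks inside the gene, 46 in KO and 57 in WT. This was 2.86 per 100 kb in KO (2.09 to 3.81) and 3.54 in WT (2.68 to 4.59), against 1.86 and 2.35 for all genes. Pcca, 406 kb long where 1610 kb were counted inside the 30 genes, held 17 of these KO peaks and 23 of these WT peaks. Rates inside the gene without Pcca were not computed. For the rates by place, all genes means the 14059 protein-coding genes with a known strand and longer than 4 kb. In front of the gene, 2 to 5 kb from the start, there was 1 KO peak and there were 7 WT peaks. The WT rate there was 7.78 per 100 kb (3.13 to 16.0), against 2.43 for all genes, and the WT peaks belonged to 7 genes, namely Ivd, Mccc1, Mmaa, Acsm1, Acsf3, Acsl5 and Bcat2. Within 5 kb past the end there were 6 KO peaks, in Acsl5, Acad8, Mccc1 and Mccc2, and 1 WT peak, in Acadsb. The KO rate there was 4.00 per 100 kb (1.47 to 8.71), against 1.39 for all genes, and the WT rate was 0.667 (0.0169 to 3.71), against 2.07. These are small numbers, and their placement was not tested. By overlap in place of midpoint, a KO peak within 2 kb of either end was present in 5 of the 36 genes (13.9%, against 7.78% of all), a WT peak in 5 (13.9%, against 14.1%) and a peak of either list in 9 (25.0%, against 20.4%). The KO genes were Acss3, Aldh6a1, Bckdhb, Acsm1 and Acsl5, and the WT genes were Aldh6a1, Acad8, Mmadhc, Acsm3 and Acsm5.

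**Figure D5:**
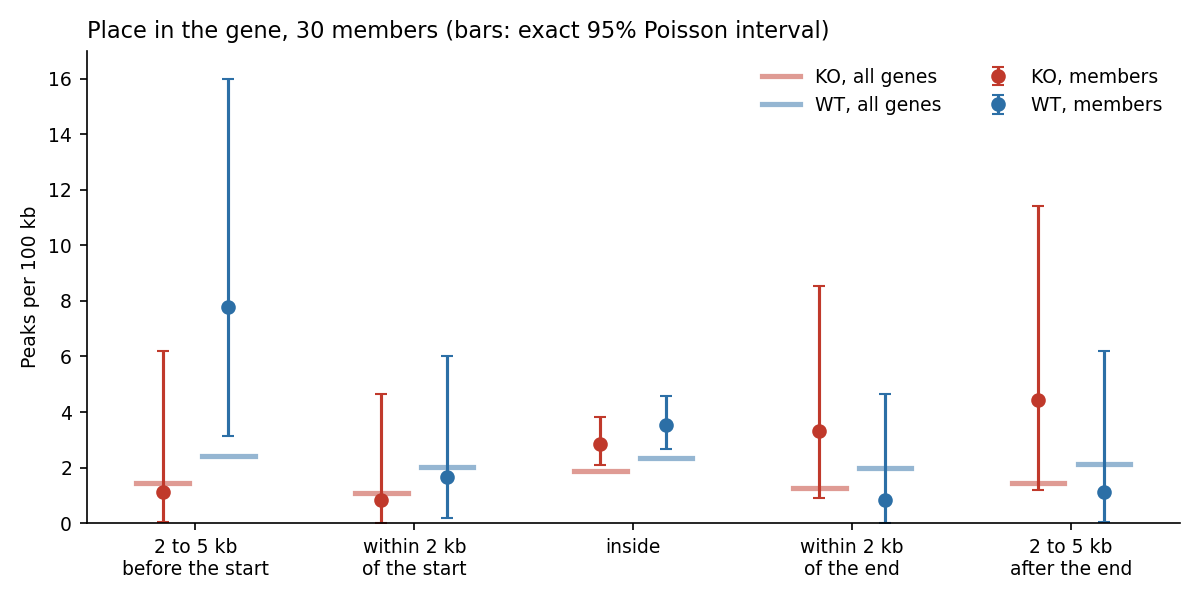
Peaks per 100 kb (vertical axis) by place in the gene for the 30 genes with a known strand, KO left of WT in each place, with exact 95% Poisson intervals. Broad horizontal bars give all genes, here the 14059 protein-coding genes with a known strand and longer than 4 kb. Only the WT rate 2 to 5 kb before the start and both rates inside the gene have intervals wholly above those of all genes. Of the peaks inside, Pcca alone holds 17 of 46 in KO and 23 of 57 in WT.

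Peaks of the 36 genes had the same median strength as peaks of all genes. It was 5 fragments in both lists, with a range of 4 to 49 in KO and 4 to 9 in WT. A q value of at most 0.05 was given to 32 of the 80 KO peaks, against 29.0% of all KO peaks in gene windows, and to 8 of the 82 WT peaks (9.76%, against 10.7%). This rule is not the same in the lists. At the lowest common background a peak of 6 fragments passed it in KO and did not in WT, and mean fragment size was 71 bp in KO and 97 bp in WT. Overlap with the other list was 1.25% of KO peaks (1.11% in all gene windows) and 1.22% of WT peaks (0.840%). With midpoints within 500 bp it was 7 of the 80 KO peaks (8.75%, against 3.49%) and 6 of the 82 WT peaks (7.32%, against 2.61%). These neighbours were in Pcca, Hibch, Aldh6a1 and Acsm1, and both KO neighbours in Hibch lay at the same WT peak. Peaks were also denser in these windows than over all genes, with 3.32 against 1.69 per 100 kb in KO and 3.40 against 2.27 in WT. The shares were not corrected for this. A local background above the lowest common level was found at 20.0% of KO peaks and 42.7% of WT peaks, against 19.0% and 37.5% in all gene windows.

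Neighbouring steps of the same pathways were looked at through 26 further genes, such as transporters, cofactor enzymes and further synthetases. They had 25 KO peaks and 33 WT peaks, or 1.70 and 2.24 per 100 kb, which was close to the rates of all protein-coding genes. A KO peak was present in 9 of the 26 genes, where 33.3% of all protein-coding genes had one. A WT peak was present in 11, where 47.7% had one. Suclg2, a subunit of succinyl-CoA synthetase that follows the mutase, was the longest and had 10 KO peaks and 12 WT peaks. Peaks were in KO only for 4 of the 26 genes, against 9.05% of all protein-coding genes, and in WT only for 6, against 23.4%. The numbers of these genes were not set against genes of like length. Ppm1k, the phosphatase that activates the branched-chain ketoacid dehydrogenase, had 3 KO peaks and no WT peak, and Lmbrd1, a lysosomal cobalamin exporter gene, had 4 and 0. On the other side, the synthetase gene Acsl6 and the fatty acid transport gene Slc27a2 each had no KO peak and 3 WT peaks, and Hlcs, which attaches biotin to carboxylases, had 1 KO peak and 5 WT peaks.

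Psmd14, the gene of RPN11 itself, had 10 KO and 7 WT peaks in its window. These numbers were not set against genes of like length. Peak numbers do not check the knockout, and peak lists hold no marker levels from which the cell makeup of the livers could be read. Windows of neighbouring genes overlap, and 9 of the 80 KO peaks and 7 of the 82 WT peaks also lay inside another protein-coding gene.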

How the data were processed

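H3K23pr ChIP-seq of mouse liver was taken from peak lists of 1 KO and 1 WT IP, each called against its own input. Groups came from the sample titles. The submitters' processing notes name cutadapt 1.9.3, Bowtie2 2.2.4 and the mm10 build. Peaks were called per library, not on pooled samples, by MACS2 2.1.1.20160309 at a p cutoff of 0.001, per the file headers. The authors' deposited pileup is a coverage signal in whole IP fragments over the summit, not scaled to depth. The fold is the deposited ratio of pileup to local background, and the p and q values are the deposited −log10 values of each peak. These scores are the authors' and served to describe or rank peaks inside 1 list. Fragment numbers, q values and p ranks also set the stricter peak thresholds, after which peak numbers were compared between KO and WT. Peak length and summit position were used as deposited. The local background was recovered as (pileup + 1) / fold − 1.

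A peak belonged to a gene when it overlapped the window by at least 1 bp. Gene ends came from the RefSeq table of GRCm38.p6, and strand and promoter sequences from the RefSeq promoter table. Like-length genes had windows within 10% of the same length. Rates by place used peak midpoints, with comparison genes longer than 4 kb, and peaks within 2 kb of a gene end were counted by overlap. Intervals are exact Poisson or Clopper-Pearson, computed with scipy 1.17.1, and cover counting error only. Peak counting was tested on simulated data. No p-value was computed, because each group had 1 library.

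Every gene of the list was accounted for. Single peaks were given for peaks near gene ends, peaks shared by the lists, the 3 strongest of each list and the genes with the most peaks for their length, and others were named after their values were seen. The genes, steps and lists were chosen with earlier results of these data known. Depth was 15468265 KO and 13615838 WT IP fragments after filtering. Other windows, peak thresholds and overlap rules were tried.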

Additional observations from a re-analysis of the deposited data

How the results depend on the processing

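Of 63 values recomputed under other settings, 47 stayed within 1.5 times the reported number or within the interval of the ratio. They include the gene body alone, 2 kb or 10 kb on both sides, peaks of at least 5 fragments in the totals over all 36 genes, summits in place of overlap and leaving out the longest gene. The other 16 follow. Keeping only q values of at most 0.05 left 32 KO peaks and 8 WT peaks, a ratio of 4.00, with a WT peak in 6 genes and a peak near a gene end in 1. Over all protein-coding genes that ratio was 2.00. With the strongest 5000 peaks of each list, ties taken in chromosome order, there were 14 KO and 8 WT peaks, a ratio of 1.75 (0.951 over all protein-coding genes), with a KO peak in 9 genes, a WT peak in 6 and a peak near a gene end in 1. Without Pcca and Acss3, a setting chosen after seeing the data, there were 46 KO and 50 WT peaks. When more of the shorter peak had to overlap than the 48.8% of the Hibch pair, 0 KO peaks were shared, and with midpoints within 500 bp 7 were. Within 5 kb of a gene end 19 genes had a peak, against 9 within 2 kb. Fewer peaks or a wider reach are part of how these settings are built. No paired analysis was possible because each genotype had 1 library.

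Most peaks rest on 4 to 6 fragments, a depth at which a missing peak does not show that a site lacks the mark. Peaks of different libraries can differ by counting alone, and genotype, library and fragment size cannot be told apart here.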
